A study of Mus musculus with 24 samples.

Results

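Knockout-only peaks are regions of 3′ UTRs at which Argonaute 2 (AGO2) was read in activated CD4+ T cells lacking microRNA-155 and was listed without a read in wild-type cells. The peaks were chosen by the measured reads of both genotypes: one was counted as knockout-only when its wild-type value was exactly 0 and its scaled knockout reads were at least 5. This held for 618 of the 14634 peaks in the deposited table, and they lay in 547 of its 4165 genes (13.1%). Those reads and the p-values of the same contrast are therefore given as descriptions and no test is made on them. Another 492 peaks had no wild-type reads and knockout reads above 0 but under 5, and 41 peaks were listed at 0 in both genotypes.

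The study compared AGO2 HITS-CLIP libraries of miR-155 KO and WT C57BL/6 mice. In this assay AGO2 is cross-linked to the RNA it touches and pulled down with an antibody, here a custom rabbit serum, and the bound RNA fragments are sequenced. Each genotype had 12 libraries, 6 with each of the 2 linkers ligated to the 3′ end. CD4+ T cells of lymph nodes and spleen were activated in culture for 4 days with CD3 and CD28 antibodies at 1 µg/mL in IL-2 at 20 U/mL. The deposited values pool the libraries of a genotype, so each peak had 1 value per genotype with no replicate error, and linker and replicate cannot be told apart. The pooled reads summed to 374126 in miR-155 KO and 371088 in WT cells. Of 7 CD4+ T cell marker genes, Cd4, Cd3e, Cd3g, Cd28 and Thy1 had peaks and Cd5 and Cd2 had none. Of 6 B cell, 6 myeloid, 6 CD8 and NK cell and 5 erythroid and platelet marker genes, only Cd22, with 1 peak, and Gzmb, with 8, had any, and neither had a knockout-only one.

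MicroRNAs guide Argonaute proteins to messenger RNAs, mostly by pairing of the microRNA's seed with a complementary site in the 3′ UTR, and the bound mRNA is then degraded or translated less. MicroRNA-155 is induced when T cells are activated and is needed for normal helper T cell and germinal centre responses. In cells without it the other microRNAs of the T cell still load AGO2, so peaks that remain or appear can be read for the sites of those families.

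Mature sequences of the families that matter most below are shown so that the sites can be read against them. They are taken from RefSeq (GRCm38.p6), written 5′ to 3′, and the capitals mark the seed, bases 2 to 8.
miR-155-5p: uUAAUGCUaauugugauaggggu
miR-15a-5p: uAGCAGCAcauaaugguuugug
miR-27a-3p: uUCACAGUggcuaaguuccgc
miR-128-3p: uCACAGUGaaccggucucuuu
miR-30a-5p: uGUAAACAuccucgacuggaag
miR-29a-3p: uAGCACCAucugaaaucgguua
let-7a-5p: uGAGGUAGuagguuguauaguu

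The next sequences are sites inside knockout-only peaks, chosen as sites of these families in the peaks with the most knockout reads (for let-7, and for the second miR-15/16 example, the 8mer in the peak with the most reads) and as the only miR-155 sites in the set. They are the DNA letters of the transcript strand from the deposited peak sequences, and the capitals mark the 7-nt or 8-nt seed match. An 8mer pairs with seed bases 2 to 8 and has an A after them, a 7mer-m8 lacks that A, and a 7mer-A1 has the A but lacks the pair at base 8. Positions are on GRCm38, from exact matches to GENCODE M21 transcripts.
Il21 peak 1, miR-29 8mer, chr3:37223802-37223825, minus strand: gtgtccaaTGGTGCTAgcattggt
Il21 peak 1, miR-15/16 7mer-m8, chr3:37223784-37223800, minus strand: gctgagttTGCTGCTcg
Wbp11 peak 2, miR-15/16 8mer, chr6:136814004-136814027, minus strand: tgaagcacTGCTGCTAacccctgc
Tmem68 peak 5, miR-27 7mer-m8 and miR-128 7mer-A1, chr4:3549949-3549971, minus strand: ttatatctACTGTGAtatatcca
Plagl2 peak 1, miR-30 7mer-A1, chr2:153230913-153230935, minus strand: acggtaccGTTTACAcattcacc
G3bp1 peak 3, let-7 8mer, chr11:55502115-55502138, plus strand: attctcttCTACCTCAaataaatg
Zfp568 peak 4, miR-155 7mer-m8, chr7:30027355-30027377, plus strand: gggacacaAGCATTAcctcaggt
Adam10 peak 1, miR-155 7mer-A1, chr9:70779378-70779400, plus strand: tggaggggGCATTAAaaaatgta

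Most knockout-only peaks held few reads. Their scaled knockout reads ran from 5.04 to 48.3, with a median of 7.68 and quartiles of 6.18 and 11.0, against 0 in WT cells at every one by the rule. Together they held 5834 reads, 1.56% of all knockout reads in the table. Of the 618 peaks, 290 had under 7.5 reads, 145 had 7.5 to 10, 158 had 10 to 20 and 25 had 20 or more. Just inside the minimum stood Fam116a peak 3 with 5.04, Gatad1 peak 2 with 5.05 and Zfp871 peak 27 with 5.06 knockout reads, and just outside it Ccnj peak 2 with 4.96, Nacc1 peak 1 with 4.95 and Bcl2l11 peak 28 with 4.92.

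Few of these peaks had a low p after adjustment over the table. After Benjamini-Hochberg adjustment of the p-values in the authors' deposited table over all 14634 peaks, 3 knockout-only peaks had an adjusted p below 0.05. Over the whole table, 4 peaks that were higher in the knockout passed (0.0273%), and 88 passed in either direction (0.601%). Before adjustment, 57 knockout-only peaks had a p below 0.05, beside 217 of all peaks in that direction (1.48%), and 248 had a p above 0.5. The rule used this contrast, so nothing is read from these counts. In the authors' deposited table the median p was 0.520 for peaks with under 7.5 knockout reads, 0.403 from 7.5 to 10, 0.177 from 10 to 20 and 0.0366 from 20 reads on.

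The 3 peaks past the adjusted threshold lay in Tnfrsf8, Tmem170b and C030046E11Rik. Tnfrsf8 encodes CD30, a TNF receptor family member of activated lymphocytes. Its peak 1 (chr4:145268143-145268182, minus strand, exon 13 of 13) had 26.7 knockout and 0 wild-type reads. The authors' deposited table gave it p = 2.02e-05, or 0.00455 after Benjamini-Hochberg adjustment. Peak 2 of the gene had 8.89 knockout and 0 wild-type reads, so Tnfrsf8 had no wild-type reads at either of its peaks. Peak 1 held no site of a family searched, and peak 2 held a miR-30 7mer-m8.

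Tmem170b encodes a transmembrane protein. Its peak 4 (chr13:41634922-41634946, plus strand, exon 3 of 3) had 17.6 knockout and 0 wild-type reads, with a Benjamini-Hochberg adjusted p of 0.0177 from the authors' deposited table, and held a 7mer-A1 site of miR-182. It ranked 38 among the knockout-only peaks by reads, and a peak 13 nt away had 6.19 knockout and 6.89 wild-type reads. The other peaks of Tmem170b together had fewer knockout than wild-type reads, 355 against 556. None of those peaks had a Benjamini-Hochberg adjusted p below 0.05 from the authors' deposited table. C030046E11Rik, named Ric1 in GENCODE M21, had a knockout-only peak 9 (chr19:29606331-29606354, plus strand, exon 26 of 26) with 26.1 reads and a Benjamini-Hochberg adjusted p of 0.0394 from the authors' deposited table. Its other peaks held 82.0 knockout and 52.5 wild-type reads, and the peak held no family site.

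The order by reads was not the order by p. The peak with the most reads lay in Mcf2l, a guanine nucleotide exchange factor, at chr8:13020305-13020336 (plus strand, exon 31 of 31). It had 48.3 knockout and 0 wild-type reads, was the only peak of its gene, and the authors' deposited table gave it p = 0.00042, or 0.0627 after Benjamini-Hochberg adjustment. Calcrl, the receptor component for the peptides CGRP and adrenomedullin, had 46.6 knockout reads at peak 4 with p = 0.487 in the authors' deposited table. Its peak 7 was also knockout-only, with 20.2 reads. The peaks of Calcrl other than peak 4 summed to more knockout than wild-type reads, 270 against 58.7. None of those peaks had a Benjamini-Hochberg adjusted p below 0.05 from the authors' deposited table.

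Il21 encodes a cytokine that helper T cells give to B cells in the germinal centre. Its only peak (chr3:37223790-37223829, minus strand, exon 5 of 5) had 35.6 knockout and 0 wild-type reads, with p = 0.151 in the authors' deposited table. The miR-29 and miR-15/16 sites printed above both lie in or at the edge of this peak. Apobec3, a cytidine deaminase that restricts retroviruses, likewise had a single peak, with 29.3 knockout and 0 wild-type reads (p = 0.0353 in the authors' deposited table). Epas1, the hypoxia-inducible factor HIF-2α, had 25.3 and 6.37 knockout reads at its pair of peaks and 0 wild-type reads at both.

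Other peaks with many reads lay in genes with wild-type reads nearby. Elf2, an ETS family transcription factor, had 34.4 knockout reads at peak 6 (Benjamini-Hochberg adjusted p = 0.0805 from the authors' deposited table), while a peak 13 nt away had 7.66 knockout and 9.74 wild-type reads. Casp6, an effector caspase, had 29.5 knockout reads at peak 1, and its other 2 peaks held 149 knockout and 116 wild-type reads. Il2rb, the β chain of the IL-2 receptor, had 28.3 knockout reads at peak 1, whereas its other 5 peaks held 14.4 knockout and 45.1 wild-type reads. Plagl2, a zinc finger transcription factor, had 39.0 knockout reads at peak 1, and its other peaks held 664 knockout and 573 wild-type reads. Ptpn3, a tyrosine phosphatase, had 36.5 knockout reads at peak 4 and 7.99 at peak 1. The rest of the 15 peaks with the most reads were in Tmem68 (28.7), Rnf34 (28.4), which encodes a RING ubiquitin ligase, and Zbtb38 (27.2), which encodes a zinc finger protein that binds methylated DNA.

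**Figure D1:**
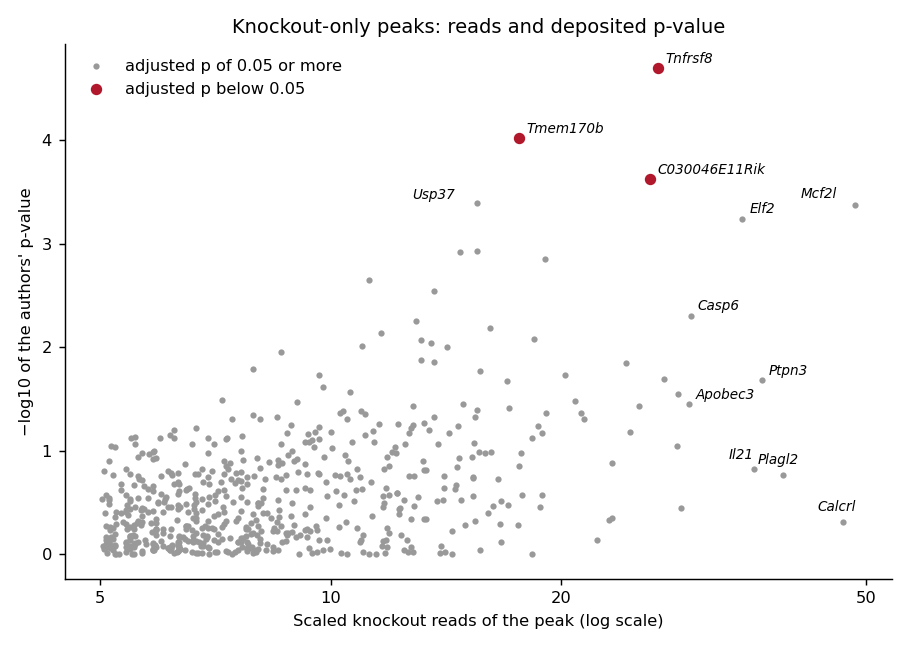
Scaled knockout reads of each knockout-only peak (log axis) against the p-value in the authors' deposited table, drawn as −log10, with 1 point a peak. The 3 peaks with a Benjamini-Hochberg adjusted p below 0.05 are the large red points, and Mcf2l, with the most reads (48.3), stands at the right edge.

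The plot of reads against p shows that peaks with about the same reads differ widely in p. Calcrl peak 4 and Mcf2l peak 1 stand side by side on the read axis, at 46.6 and 48.3 knockout reads, and far apart on the p axis, at 0.487 and 0.00042 in the authors' deposited table. The test behind that p is not stated in the labels or the file header.

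Sites of microRNA families were searched in every peak, and they were not part of the rule. Seed sites of 27 families named for T cells were searched, each as an 8mer, a 7mer-m8 or a 7mer-A1. Such a site was present in 223 of the 618 knockout-only peaks (36.1%, exact binomial 95% interval 32.3 to 40.0), and 395 had none. The share was 39.3% (36.7 to 42.0) over 1368 wild-type-only peaks, which had 0 knockout and at least 5 wild-type reads. Of those, 130 held a miR-155 site, and over the 1238 without one the share was 33.0%, so the direction of this difference turned with the miR-155 sites. The share was 42.2% (41.0 to 43.3) over 7621 peaks read in both genotypes whose summed reads fell in the same range as those of the knockout-only peaks, and 43.6% over all other peaks. Only the ends of that range were shared, so the 7621 peaks were not matched for depth, here or below. Their summed reads had a median of 18.2 (quartiles 11.5 and 28.5), against 7.68 (6.18 and 11.0) for knockout-only peaks. The intervals cover counting error over peaks only, and peaks of 1 gene or of overlapping sequence are not independent. A full 8mer was present in 11.5% of knockout-only peaks, against 13.2% of wild-type-only peaks and 13.4% of peaks read in both genotypes in the same range. Among knockout-only peaks the share with a site was 34.5% under 7.5 reads, 40.7% from 7.5 to 10, 35.4% from 10 to 20 and 32.0% (14.9 to 53.5) from 20 reads on, with no steady trend.

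The miR-15/16 family, known for restraining cell cycle and survival genes, had sites in the most knockout-only peaks, 26 peaks (4.21%), against 2.56% of wild-type-only peaks and 4.59% of all other peaks. The miR-27 family followed with 22 peaks (3.56%, against 2.05% of wild-type-only and 3.60% of all other peaks), and miR-30 with 19 (3.07%, against 1.83% and 2.92%). The let-7 family had a site in 15 peaks (2.43%), against 1.83% of wild-type-only peaks and 1.90% of all other peaks. For each of these 4 families the interval of the knockout-only share contained the share over all other peaks. The miR-27 and miR-128 seeds overlap by their letters, and 11 peaks, among them Tmem68 peak 5, Mll1 peak 14 and Itgb1, were counted for both. Sites of 2 or more families were present in 61 knockout-only peaks (9.87%), against 7.89% of wild-type-only peaks and 11.2% of all other peaks.

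Sites of miR-155 were present in 2 knockout-only peaks (0.324%, 0.0392 to 1.16). The share was 9.50% (8.0 to 11.2), or 130 peaks, among wild-type-only peaks and 0.814% among peaks read in both genotypes in the same range. The knockout-only interval contained this last share. Knockout-only and wild-type-only peaks were chosen by reads without and with miR-155, so their miR-155 shares are given as descriptions. Zfp568, which encodes a KRAB zinc finger repressor, carried 1 of the 2 miR-155 sites in peak 4, with 24.6 knockout reads and p = 0.0662 in the authors' deposited table. That peak also held a let-7 7mer-A1 whose letters overlap the miR-155 site and a miR-23 7mer-m8. Adam10, a membrane protease that sheds surface proteins, carried the other in peak 1, with 5.60 knockout reads. The fewest sites otherwise were those of miR-31, with 1 peak in Bach2, and miR-18, with 3. Their shares were 0.162% and 0.485%, against 0.485% and 0.585% of all other peaks. Both knockout-only intervals contained the share over all other peaks. The miR-21 family, abundant in activated T cells, had 4 peaks (0.647%, 0.177 to 1.65), against 1.10% of wild-type-only and 1.64% of all other peaks.

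**Figure D2:**
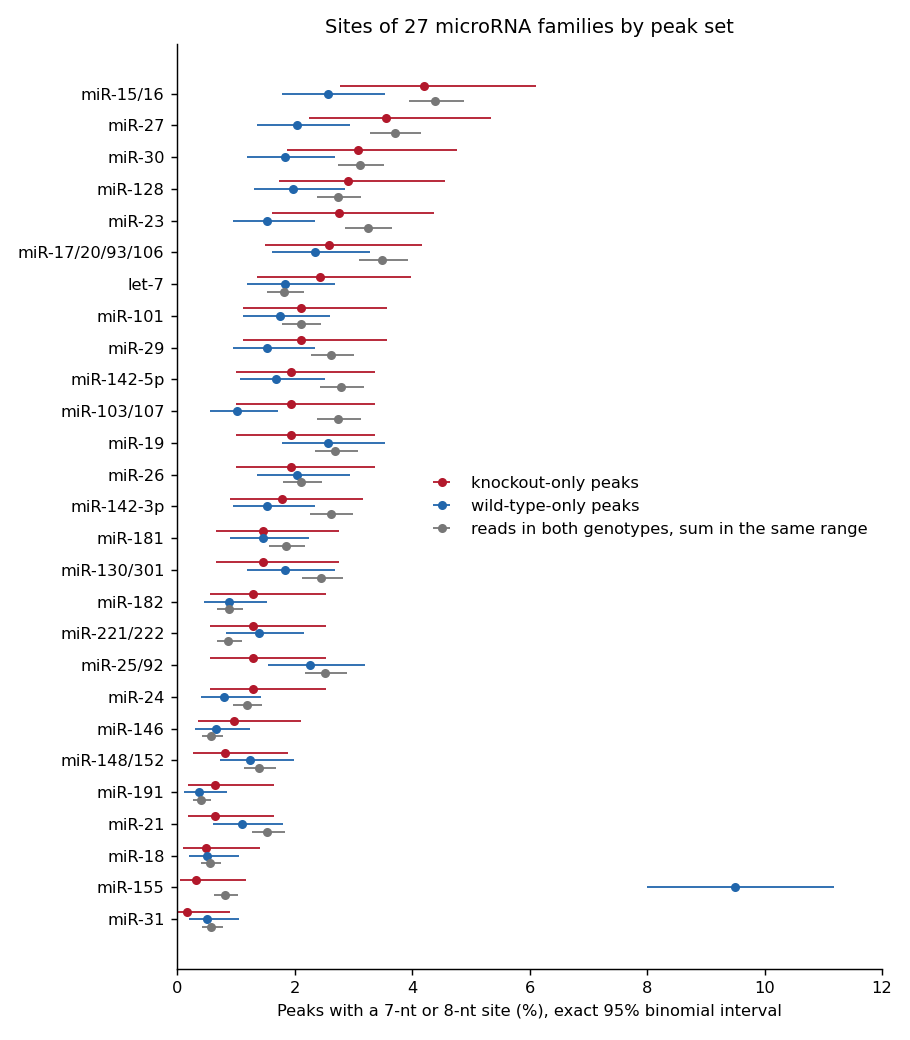
Percent of peaks with a 7-nt or 8-nt seed site of each of 27 families, for knockout-only peaks, wild-type-only peaks and peaks read in both genotypes whose summed reads fall in the same range. Points are shares and lines exact binomial 95% intervals over peaks; the miR-155 row has 0.324% of knockout-only and 9.50% of wild-type-only peaks.

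In the plot of family sites, miR-155 is the row in which knockout-only and wild-type-only peaks lie farthest apart.

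Examples by family show the range of genes with a site in a knockout-only peak. Whether these microRNAs repress the genes was not tested. Wbp11, a splicing factor, had 24.3 knockout reads at peak 2 with the miR-15/16 8mer printed above. Prpf39, another splicing factor, had 23.1 knockout reads at peak 1 with a miR-142-3p 8mer. Mll1 (Kmt2a), a histone H3 lysine 4 methyltransferase, had 18.4 knockout reads at peak 15 with a miR-182 8mer. Tnrc6b, a GW182 protein that links Argonaute to mRNA decay, had 16.7 knockout reads at peak 14 with a miR-19 8mer. Bcl2l2, an anti-apoptotic BCL-2 family member, had 16.3 knockout reads at peak 1 with a miR-24 8mer, and its other peak had 0 knockout and 7.40 wild-type reads. Entpd7 had 16.7 knockout reads at its only peak with a miR-29 8mer. G3bp1, a stress granule protein, had 15.3 knockout reads at peak 3 with the let-7 8mer printed above. Each of these peaks was listed at 0 in WT cells.

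Knockout-only peaks were richer in G and C than the peaks they were set against. The median GC content of knockout-only peak sequences was 39.6% (quartiles 33.3 and 46.6), against 36.4% for wild-type-only peaks, 37.0% for peaks read in both genotypes in the same range and 36.7% for all other peaks. Above the table's median GC lay 374 knockout-only peaks (60.5%, 56.5 to 64.4), against 48.0% (45.3 to 50.7) of wild-type-only peaks and 50.4% (49.3 to 51.5) of peaks read in both. A GC content of 50% or more was found in 16.3% (13.5 to 19.5) of knockout-only peaks, against 9.87% (8.34 to 11.6) of wild-type-only peaks and 10.5% of peaks read in both. A GC content under 30% was found in 15.5% (12.8 to 18.6), against 22.5% (20.3 to 24.8) and 21.8%. Between these sets the intervals do not overlap.

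Fewer of their bases were A. Its median share was 26.7% in knockout-only peaks, against 29.2% in wild-type-only peaks and 28.6% in all other peaks, while the median T was 33.3% in both knockout-only and wild-type-only peaks. Motifs were searched on the transcript strand only. The polyadenylation hexamer AATAAA was present in 35 knockout-only peaks (5.66%, 3.98 to 7.79), against 8.99% of wild-type-only peaks and 9.75% of all other peaks. A run of 6 A was present in 3.07%, against 5.04% and 5.39%. The AU-rich pentamer ATTTA was present in 9.55% (7.35 to 12.1), against 11.7% of wild-type-only peaks and 11.7% of all other peaks. The Pumilio motif TGTANATA was present in 2.75%, against 2.85% and 3.75%.

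**Figure D3:**
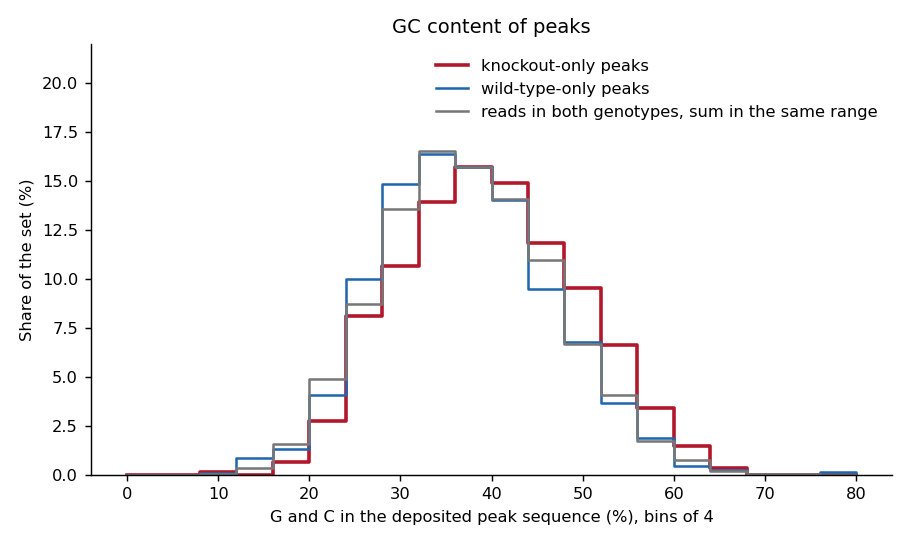
Percent of each set of peaks by GC content of the deposited sequence, in bins of 4 percentage points, for knockout-only peaks, wild-type-only peaks and peaks read in both genotypes in the same range. The knockout-only outline lies to the right of the others, with a median of 39.6% against 36.4% for wild-type-only peaks.

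The plot of GC content shows a shifted distribution rather than a separate group of peaks. Within genes the same direction was found: 307 of 530 knockout-only peaks (57.9%) had a higher GC content than the mean of the same gene's peaks with wild-type reads, with a median difference of 2.08 percentage points. Of 1093 wild-type-only peaks set against their genes' peaks with knockout reads, 49.1% were higher, with a median of −0.29. The median GC content was 38.9% under 7.5 knockout reads, 40.5% from 7.5 to 10, 40.1% from 10 to 20 and 42.9% from 20 on. Single peaks spread widely: Cish peak 5 had 62.8%, Il21 peak 1 had 53.8%, Ptpn3 peak 4 had 24.4% and Rnf34 peak 3 had 22.4%.

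The deposited positions count from the start of the 3′ UTR, and placement preferred a 3′ UTR, so most peaks had to fall in one. Of 602 knockout-only peaks matched to GENCODE M21 transcripts, 593 did (98.5%, against 98.9% of all 14165 placed peaks), 7 fell in the coding or 5′ part and 2 on transcripts without a coding region. Some peaks overlapped a coding region annotated in any transcript of the gene, the matched one included, so the 7 peaks above can count here. That held for 35 placed knockout-only peaks (5.81%, 4.08 to 7.99). The share was 3.08% (2.22 to 4.16) of wild-type-only and 3.48% (3.18 to 3.80) of all other peaks. Among the 35 were Prpf39 peak 1 (exon 6 of 17) and the 3 peaks of Smc4, a condensin subunit. The 35 peaks had a median GC content of 46.5%. Without peaks on coding regions, 59.3% of knockout-only peaks still lay above the table's median GC, against 46.9% of wild-type-only peaks.

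Position along the UTR was close in the sets. Knockout-only peaks started at a median of 903 nt into the UTR, against 938 nt for wild-type-only and 880 nt for all other peaks, and ran from 4 to 13660 nt. Of the knockout-only peaks, 50.5% (46.5 to 54.5) started beyond the table's median position. They started within the first 250 nt in 18.9% and beyond 3000 nt in 11.3%, against 18.7% and 11.2% of all other peaks. As a share of the annotated UTR length, the median start was 41.2%, against 43.3% in wild-type-only and 43.0% in all other peaks.

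Spacing differed from that of peaks read in both genotypes. In genes with more than 1 peak, the nearest other peak lay a median of 73 nt away, against 54 nt for wild-type-only peaks, 41 nt for peaks read in both genotypes in the same range and 40 nt for all other peaks. It was within 20 nt for 134 of 539 knockout-only peaks (24.9%, 21.3 to 28.7), against 26.3% of wild-type-only peaks and 31.9% (30.8 to 33.0) of peaks read in both. It was over 200 nt away for 161 (29.9%, 26.0 to 33.9), against 26.3% (23.7 to 28.9) and 21.3% (20.3 to 22.3). Of the 134 peaks with a close neighbour, 122 had wild-type reads at that neighbour, with a median of 6.12 knockout and 8.32 wild-type reads. How the authors drew the border between such close peaks was not stated.

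**Figure D4:**
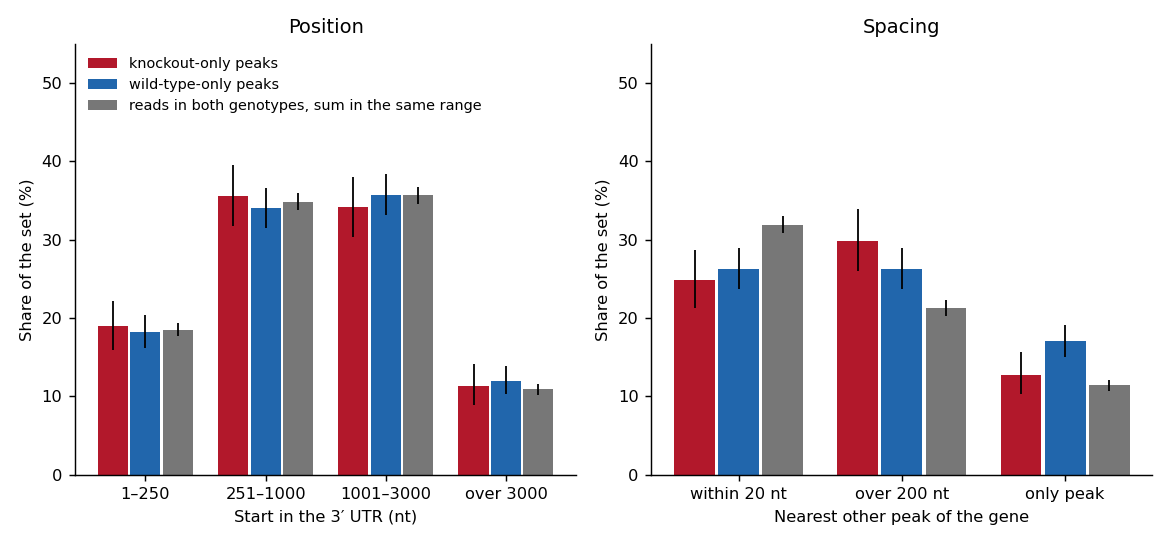
Percent of each set of peaks by start in the 3′ UTR (left) and, on the right, with the nearest other peak within 20 nt or over 200 nt away, of peaks in genes with several, or as their gene's only peak, of all. Bars are shares and lines exact binomial 95% intervals over peaks. The start bars lie close together. In genes with several peaks, the nearest lay over 200 nt away for 29.9% of knockout-only peaks and 21.3% of peaks read in both genotypes.

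The plot of position and spacing shows the sets close together for start, and knockout-only and wild-type-only peaks both below the peaks read in both genotypes for a neighbour within 20 nt. Tmem68 gives an example of a close pair: peak 5 with 28.7 and peak 4 with 11.2 knockout reads lay 7 nt apart, both at 0 in WT cells, while the gene's peaks other than peak 5 held 188 knockout and 211 wild-type reads.

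Most knockout-only peaks lay in genes that AGO2 bound in both genotypes. Of the 618 peaks, 79 (12.8%) were the only peak of their gene, against 17.0% of wild-type-only peaks and 11.6% of all other peaks. In the 539 peaks with other peaks in the gene, those others summed to more knockout than wild-type reads for 263 (48.8%, 44.5 to 53.1), against 42.5% (39.6 to 45.4) of wild-type-only and 45.1% of all other peaks. Over all 618 peaks, the genes' other peaks had a median of 55.8 knockout and 58.9 wild-type reads. No wild-type reads at any peak were listed for 85 genes, which held 88 of the knockout-only peaks. For the 79 peaks that were the only peak of their gene, this followed from the rule. In 6 of the 85 genes there was more than 1 peak, namely Tnfrsf8, Epas1, Hbegf, Sos2, Mllt6 and Sf1.

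The genes with most wild-type reads elsewhere show how small a knockout-only peak can be within its gene. Cdkn1b, the cell cycle inhibitor p27, had 6.90 knockout reads at peak 4, and its other peaks held 3319 knockout and 3218 wild-type reads. Bach2, a transcriptional repressor that restrains effector differentiation, had 7.13 knockout reads at peak 16, beside 2348 knockout and 2136 wild-type reads at its other peaks. Il2ra, the α chain of the IL-2 receptor, had 13.3 knockout reads at each of peaks 17 and 30, and its peaks other than either one held 3280 knockout and 1934 wild-type reads. Herpud1, an endoplasmic reticulum stress protein, had 9.67 knockout reads, beside 1728 knockout and 1713 wild-type reads, and Scd2, a fatty acid desaturase, had 12.3, beside 2192 and 1487.

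**Figure D5:**
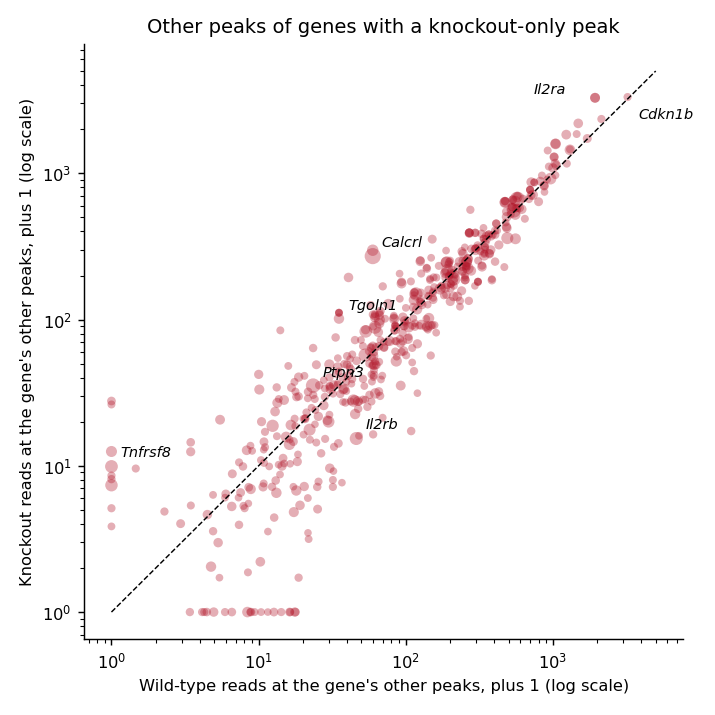
Knockout against wild-type reads summed over the gene's other peaks, plus 1, for each knockout-only peak in a gene with more than 1 peak (log axes, dashed line at equal reads). Larger points have more reads at the knockout-only peak; Cdkn1b lies near the line (3319 knockout and 3218 wild-type reads) and Calcrl above it.

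The plot of the genes' other peaks shows points on both sides of the line of equal reads, with Tnfrsf8 at 0 wild-type reads. Several knockout-only peaks in 1 gene were uncommon: 490 genes had 1, 47 had 2, 6 had 3 and 4 had 4. Zbtb38 had 4, with 27.2, 12.6, 9.85 and 6.62 knockout reads, and 114.5 knockout and 60.8 wild-type reads in all. Tgoln1, a protein of the trans-Golgi network, had 4, with 5.41 to 15.5 knockout reads, and 116 knockout and 34.2 wild-type reads in all. Mll1 had 4 with 6.90 to 18.4, and Rhoq, a small GTPase, had 4 with 8.03 to 11.4 knockout reads. Cish, a STAT5-induced inhibitor of cytokine signalling, had 3, with 18.7, 10.5 and 6.61 knockout reads, and 117 knockout and 65.3 wild-type reads in all. Plagl2, the Ras activator Rasgrp1, the membrane tether Esyt2, the caspase inhibitor Xiap and Smc4 also had 3 each. Over all peaks Smc4 had 186 knockout and 309 wild-type reads, and Xiap had 776 and 699. No peak of either gene had a Benjamini-Hochberg adjusted p below 0.05 from the authors' deposited table.

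Gene lists by function were read against the 13.1% of all genes with peaks that had a knockout-only one. Genes with many peaks have more chances to hold one, so the share of peaks, 4.22% over the table, is given beside it. Among cytokine and chemokine genes, 3 of 16 genes with peaks had one (18.8% of genes, 6.25% of peaks): Il21 at 35.6, Tnfsf14, the TNF family ligand LIGHT, at 12.4, and Ccl3, a chemokine, at 5.87 knockout reads. Among their receptors, 7 of 27 had one (25.9% of genes, 5.29% of peaks). Il2rb, Tnfrsf8 and Il2ra are given above, and the TGF-β receptor genes Tgfbr1 and Tgfbr2 had 17.7 and 16.6 knockout reads, Tgfbr2 with a miR-23 8mer.

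A knockout-only peak was present in 5 of 25 genes of T cell receptor signalling and costimulation (3.14% of peaks). Cd44, an adhesion receptor of activated T cells, had 18.8 and 9.07 knockout reads at 2 peaks, Malt1, a scaffold and protease of NF-κB signalling, had 12.7, and Nfatc2, a calcium-activated transcription factor, had 7.22 at a peak with a miR-19 8mer. Among helper T cell transcription factor genes, 9 of 43 had one (2.61% of peaks), led by the zinc finger factor Klf6 at 22.3, the E protein inhibitor Id2 at 14.6, Irf4 at 12.8 and Fos, an AP-1 subunit, at 10.6 and 8.60. Irf4, needed for effector differentiation, held 1836 knockout and 1232 wild-type reads at its other peaks.

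Among cell cycle genes 6 of 30 had one (3.54% of peaks), with E2f8, an atypical E2F repressor, at 14.3, the cyclin G2 gene Ccng2 at 9.13 and the phosphatase gene Cdc25b at 7.93. Among apoptosis genes 5 of 20 had one (3.83% of peaks), with Casp6 and Bcl2l2 above and Bcl2l11, the death activator BIM, at 10.9 and 7.93. Among chromatin regulator genes 6 of 50 had one (2.81% of peaks), with Mll1 above, Tet1, a 5-methylcytosine dioxygenase, at 7.25 and 6.08, and Arid1b, a BAF complex subunit, at 7.23 as its gene's only peak. Among ubiquitin genes 6 of 41 had one (3.40% of peaks). Usp37, a deubiquitinase, had 15.5 at peak 3, with a Benjamini-Hochberg adjusted p of 0.0623 from the authors' deposited table, and the F-box protein genes Fbxo28 and Fbxw7 had 14.1 and 10.8. Among PI3K, AKT and mTOR genes 5 of 23 had one (4.08% of peaks), with Rictor, a subunit of mTORC2, at 11.8 and Pdk1 at 10.7, a symbol that stands for pyruvate dehydrogenase kinase rather than a kinase of this pathway. Without Pdk1, 4 of 22 genes had one (18.2% of genes, 2.96% of peaks).

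Genes of the microRNA pathway itself had the highest share of genes among the functional lists, 7 of 16 (43.8%), with 11 of their 167 peaks knockout-only (6.59%). Tnrc6b had 16.7 and 6.01 knockout reads, and the decapping activator Ddx6 had 16.2 and 5.48. Cnot6l, a deadenylase of the CCR4-NOT complex, had 11.3 and 7.89, and Eif2c1, which encodes AGO1, had 7.66. Eif2c2, which encodes the AGO2 protein that was pulled down, had 6.47 and 6.01. All 11 peaks were at 0 in WT cells, and none had an adjusted p below 0.05.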

How the data were processed

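AGO2-bound RNA was sequenced from 24 libraries. Reads were aligned with Bowtie 0.12.7 to mm9, per the submitters' processing notes; neither the labels nor the file header state how peaks were called, reads scaled or duplicates handled. The deposited table gives, per the file headers, log2 reads per genotype and their log2 ratio for each peak, pooled by the authors over libraries, with a p-value, start, end and sequence. Values were read as log2(1 + scaled reads), since peaks without reads stand at exactly 0; depth per library is unknown. The members and lists were chosen with earlier results of these data known.

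The deposited p-values were adjusted by Benjamini-Hochberg over all peaks, and no new test was made. Shares carry exact Clopper-Pearson 95% intervals, which cover counting error only. Sequences, which include 6 nt of flank on each side, were searched for seed sites from RefSeq mature microRNAs (27 of 28 listed families; miR-150 was not searched). The search and the adjustment were tested on simulated data. Peaks were placed by exact match to GENCODE M21 transcripts (GRCm38, not the authors' mm9), with an annotated 3′ UTR preferred where several matched. The comparison set with summed reads in the same range was chosen after seeing the data. Genes were named by rule: peaks past the adjusted threshold, the 15 with most reads, the edges of the minimum, up to 4 genes per list and 3 peaks per family by reads, genes with 3 or more such peaks, and the extremes of reads at other peaks. Cish peak 5, Itgb1, Eif2c2, Hbegf, Sos2, Mllt6 and Sf1 and the peaks on coding exons were chosen after their values were seen. Ddx3y and Uty were named as the genes of the 2 knockout-only peaks on chromosome Y. Python 3.11.15, NumPy 2.4.6, pandas 2.3.3, SciPy 1.17.1 and Matplotlib 3.10.9 were used.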

Additional observations from a re-analysis of the deposited data

How the results depend on the processing

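The table pools the libraries of a genotype, so no value has a replicate error, and leaving out a library was not possible. No paired analysis was possible because the deposited columns carry no replicate number, and the fit with the replicate block was not run. A peak listed at 0 in WT cells may have had reads below what pooling and scaling keep. The number of knockout-only peaks was 1037 with a minimum of 2 knockout reads and 183 with a minimum of 10, and 547 with 1 peak per gene. The number past the adjusted threshold was 1 at 0.01, 6 at 0.1, 0 with Bonferroni adjustment and 5 when peaks with at least 10 reads in both genotypes together were adjusted alone; it was 3 without peaks at 0 in both. The share with a family site was 23.9% without 7mer-A1 sites, 52.6% with 6mers and 29.4% over 17 families, a choice made after seeing the data. It stayed between 32.5% and 36.7% without flanks, with a minimum of 2 or 10 reads, and with 1 peak per gene. With a minimum of 2 or 10 reads and with 1 peak per gene, the share above the median GC ran from 59.2% to 61.2% and the share starting beyond the median position from 48.8% to 53.0%.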

Other observations

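Scaled reads repeated across peaks. Of the 618 knockout-only peaks, 275 shared their knockout value with another, and the most frequent value, 6.32 scaled reads, was listed for 10 of them. No such count was made for other peaks, so it is not read as particular to this set. Chromosome 2 held the most placed knockout-only peaks, 54 (8.97%), against 8.45% of all placed peaks. On chromosome Y, which held 12 placed peaks, 2 knockout-only peaks lay in Ddx3y (9.25 knockout reads) and Uty (5.87). These were 0.332% of the placed knockout-only peaks, against 0.0847% of all placed peaks for the chromosome. The other peaks of Ddx3y held 545 knockout and 482 wild-type reads, and those of Uty 15.3 and 19.2.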
